A study of Mus musculus with 12 samples.

Results

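The 10 genes described here handle iron and other metals in fibrochondrocytes of the mouse mandible, and they were taken by gene name from a table of 31075 genes. They are Tfrc, Fth1, Ftl1, Slc40a1, Slc11a2, Steap3, Mt1, Mt2, Slc30a1 and Slc39a14. All 10 passed the filter on low counts, as did 19118 genes in all. Their counts ran from 402 for Slc40a1 in 1 wild type library to 185598 for Ftl1 in 1 knockout library.

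Poly(A) RNA was sequenced from primary cells of the mandibular condylar cartilage of pups aged 10 to 14 days, in 12 libraries that form 4 groups of 3. KO_Opti and KO_Norm cells lack the transmembrane proteoglycan NG2/CSPG4 through a reporter-tagged deletion allele of Cspg4, made from a knockout-first allele by crossing to a Cre line and backcrossed to C57BL/6J. WT_Opti and WT_Norm cells came from C57BL/6J mice. Opti cells were kept in Opti-MEM without added serum and Norm cells in AMEM with fetal bovine serum, so that the basal medium changed together with the serum and their effects cannot be told apart. The sample labels give passage 4 for all groups, whereas the study's methods state use before passage 3. The methods name 3 biological replicates, and neither source says whether these came from separate animals or cultures. Each p-value thus reflects only how far these libraries spread, which may be technical.

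The labels of the 6 knockout libraries contradict each other on the medium, since each library's title gives one medium and its treatment entry the other. The titles are followed here. The comparison of WT_Opti with WT_Norm and the comparison of knockout with wild type over both media do not depend on that reading. For the other comparisons of the 10 genes the values under the treatment entry are given where they end a call or turn a direction.

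Cspg4, the targeted gene, lay between 10.5 and 16.6 CPM (counts scaled to library size) in the 6 knockout libraries, against 113.5 to 216.3 CPM in the 6 wild type libraries. Its log2 fold change over both media was -3.73 ± 0.13 (SE), a 13.3-fold lower level, so genotype and labels go together. Total counts were between 51546504 and 71448484 per library. Summed fibroblast and chondrocyte markers, with all 10 detected, were lowest in KO_Opti (31739 to 45792 CPM), then KO_Norm (60166 to 78536), WT_Opti (88698 to 100938) and WT_Norm (123023 to 137198). Such a sum follows its most abundant genes. Taken singly, 4 of these 10 markers were higher and 6 lower in the knockout over both media. Summed myeloid markers, 18 genes of macrophages and related cells, were at 213 to 244 CPM in KO_Opti, 619 to 670 in KO_Norm, 688 to 1211 in WT_Opti and 610 to 760 in WT_Norm. In RNA from whole cultures, fewer cells of a type and less RNA per cell cannot be told apart. Erythroid markers were at 91.8 CPM in WT_Norm replicate 2 and 24.2 CPM in replicate 3, against at most 6.04 CPM in the other 10 libraries. Epithelial markers were at 135 and 144 CPM in WT_Norm replicates 1 and 2, against at most 23.0 CPM in the other 10, and endothelial markers at 39.8 CPM in WT_Norm replicate 2, against at most 3.90 CPM in the other 11.

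Cells take up iron bound to transferrin through the transferrin receptor, reduce it in the endosome, move it into the cytosol, store it in ferritin and release it through ferroportin. Iron regulatory proteins bind hairpins called iron-responsive elements (IREs) in the mRNAs of several of these genes when iron is scarce, which blocks translation of ferritin and ferroportin and stabilizes the transferrin receptor mRNA. Zinc and copper are bound by metallothioneins, and the metal-responsive transcription factor MTF-1 acts on metal response elements (MREs) in the promoters of metallothionein genes and of the zinc exporter Slc30a1. Macrophages are known for high levels of several of these genes, among them Slc40a1, Fth1 and Ftl1. Transferrin is a plasma protein and so part of serum, and Opti-MEM is a medium that its maker supplements with transferrin and insulin.

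The IRE letters are shown first because they divide the iron genes into those with a 5′ UTR hairpin and those with 3′ UTR hairpins. A 6-base loop, CAGTG followed by A, C or T, was searched on the transcript strand of annotated UTRs. It had to lie between 5 paired bases, G-T pairs included, with an unpaired C before the stem. One match was found in the 5′ UTR of each of Fth1 (chr19:9982733-9982759, plus strand), Ftl1 (chr7:45459780-45459806, minus strand) and Slc40a1 (chr1:45925466-45925492, minus strand), in transcripts of GENCODE M21 on GRCm38. Tfrc had 4 matches in its 3′ UTR, of which the first (chr16:32631220-32631246) and the last (chr16:32631711-32631737), both on the plus strand, are shown. Capitals mark the unpaired C and the loop.
Fth1 5′ UTR: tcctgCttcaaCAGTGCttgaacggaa
Ftl1 5′ UTR: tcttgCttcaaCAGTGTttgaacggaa
Slc40a1 5′ UTR: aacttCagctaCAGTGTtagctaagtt
Tfrc 3′ UTR, first: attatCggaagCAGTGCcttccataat
Tfrc 3′ UTR, last: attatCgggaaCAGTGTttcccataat
Of 21899 genes, 20 (0.0913%) had such a match in a 5′ UTR and 97 (0.443%) in a 3′ UTR. The Fth1 and Ftl1 hairpins share the loop letters CAGTG and the same stem letters next to it. No match was found in Slc11a2, which says only that no loop with such a stem and C lay in the UTRs searched. A loop with an imperfect stem would have been missed.

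The promoters of the metallothionein genes and of Slc30a1 are shown because the first 2 genes moved together in these libraries and the third did not. They are from RefSeq on GRCm38.p6, which gave an entry for 7 of the 10 genes. The 250 bases before the annotated start were searched on both strands for the MRE letters TGCACNC or TGCGCNC, which stand in capitals. Mt2 (chr8:94172368-94172617, plus strand) had 3 matches, with their first bases 223, 128 and 50 bases from the end of the sequence shown. Mt1 (chr8:94178839-94179081, plus strand, 243 bases shown) had 1 match at 16 bases, and Slc30a1 (chr1:191906531-191906766, plus strand, 236 bases shown) had 1 match at 29 bases.
Mt2 promoter: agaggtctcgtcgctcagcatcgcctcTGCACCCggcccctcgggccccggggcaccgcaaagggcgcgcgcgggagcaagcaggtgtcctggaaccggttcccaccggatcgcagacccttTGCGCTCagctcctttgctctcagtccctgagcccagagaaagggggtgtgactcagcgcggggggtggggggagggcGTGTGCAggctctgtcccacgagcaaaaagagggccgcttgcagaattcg
Mt1 promoter: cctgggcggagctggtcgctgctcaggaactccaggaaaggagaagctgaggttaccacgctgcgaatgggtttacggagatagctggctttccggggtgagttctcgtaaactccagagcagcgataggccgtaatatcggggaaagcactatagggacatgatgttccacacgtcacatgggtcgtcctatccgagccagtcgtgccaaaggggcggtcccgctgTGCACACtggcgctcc
Slc30a1 promoter: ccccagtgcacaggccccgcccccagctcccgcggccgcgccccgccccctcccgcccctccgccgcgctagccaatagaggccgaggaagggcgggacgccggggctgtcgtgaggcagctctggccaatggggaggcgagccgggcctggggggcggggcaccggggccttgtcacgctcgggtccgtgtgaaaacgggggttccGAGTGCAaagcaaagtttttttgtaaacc
Among the other genes with an entry, Tfrc had 2 matches before one annotated start (chr16:32608646-32608895) and 0 before the other. Steap3, Ftl1 and Fth1 had 0. Of 32851 promoters of the same length, 21.4% held at least 1 match and 1.26% at least 3. The letters TGACNNNGC, the core of an antioxidant response element, occurred once in Mt2 and once in Slc30a1 and in 10.2% of all promoters. These matches describe the letters upstream of one annotated start and not sites of binding. Bases past that start were not searched, so the numbers of matches do not rank the genes by their MREs.

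The change from serum medium to Opti-MEM in wild type cells was accompanied by higher mRNA of ferritin, ferroportin and metallothioneins. Of the 10 genes, 7 were higher in WT_Opti and 1 was lower, against 39.8% of all genes tested called in either direction. The median log2 fold change of the 10 genes was 0.92, against -0.01 over all genes. Mt2, Mt1 and Slc40a1 rose most and Slc39a14 fell. Slc11a2 and Slc30a1 did not pass the threshold. The same 8 genes were called when any one WT_Norm library was left out. This comparison contrasts WT libraries alone, with labels that do not contradict each other. Its filter, scaling and estimate of spread used all 12 libraries. Of 18 myeloid markers, 2 were higher in WT_Opti and 4 lower (33.3%, against 39.8% of all genes), and their part was not tested.

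The ferritin chains are the cell's iron store, with a heavy chain (Fth1) that oxidizes iron and a light chain (Ftl1) that helps to lay it down as a mineral. Fth1 (ENSMUSG00000024661, chr19:9980598-9985092) was at 2161, 2334 and 2451 CPM in WT_Opti, against 1016, 783 and 919 CPM in WT_Norm. Ftl1 (ENSMUSG00000050708, chr7:45457944-45459884) was at 2350, 2524 and 2701 CPM in WT_Opti, against 1096, 916 and 1249 CPM in WT_Norm. For each chain all 3 WT_Opti libraries stood above all 3 WT_Norm libraries. Fth1 had a log2 fold change of 1.35 ± 0.14 (SE, adjusted p = 7.47e-06) and Ftl1 one of 1.22 ± 0.14 (adjusted p = 2.3e-05). Together the ferritin rows of these 2 genes made up 0.493% ± 0.032 of all counts in WT_Opti and 0.183% ± 0.026 in WT_Norm (SD, n = 3 each).

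Ferroportin, the product of Slc40a1 (ENSMUSG00000025993, chr1:45908068-45926523), is the only known iron exporter of mammalian cells. Slc40a1 was at 29.0, 31.4 and 30.0 CPM in WT_Opti, against 9.23, 13.3 and 8.67 CPM in WT_Norm, so that the WT_Opti libraries were close together and well above the others. It was 2.90-fold higher (log2 fold change 1.54 ± 0.16, adjusted p = 9.25e-06). Tfrc (ENSMUSG00000022797, chr16:32608920-32632794), the transferrin receptor, is the gene with IREs at the other end of its mRNA. Tfrc was at 31.0, 33.6 and 29.1 CPM in WT_Opti, against 23.9, 17.2 and 19.6 CPM in WT_Norm, a 1.54-fold rise without overlap (log2 fold change 0.62 ± 0.13, adjusted p = 0.00175). The receptor mRNA and the ferritin mRNAs were thus higher in the same libraries. Steap3 (ENSMUSG00000026389, chr1:120190757-120271082), which reduces iron in the endosome, was at 222, 222 and 243 CPM in WT_Opti, against 138, 158 and 154 CPM in WT_Norm (log2 fold change 0.61 ± 0.12, adjusted p = 0.00127). Slc11a2 (ENSMUSG00000023030, chr15:100387898-100424092) encodes DMT1, which carries reduced iron out of the endosome. Its levels of 65.4, 62.7 and 57.4 CPM in WT_Opti did not overlap 52.9, 53.7 and 52.1 CPM in WT_Norm, yet the log2 fold change of 0.23 ± 0.09 missed the threshold (adjusted p = 0.0758). With counts scaled to library totals alone, an alternative added after seeing the data, its adjusted p was 0.00529.

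Metallothioneins are small cysteine-rich proteins that bind zinc and copper. Mt1 (ENSMUSG00000031765, chr8:94179082-94180327) was at 173, 208 and 224 CPM in WT_Opti, against 39.5, 50.9 and 68.5 CPM in WT_Norm (log2 fold change 1.93 ± 0.18, adjusted p = 2.91e-06). Mt2 (ENSMUSG00000031762, chr8:94172664-94173568), its neighbour on the chromosome, was at 107, 133 and 137 CPM in WT_Opti, against 17.4, 22.3 and 35.9 CPM in WT_Norm (log2 fold change 2.32 ± 0.21, adjusted p = 2.88e-06). Mt1 was 3.81-fold higher and Mt2 differed still more, ahead of the other 8 genes in this comparison, and WT_Norm replicate 3 was the highest of its group for each. Per length, Mt2 was at 1.32 ± 0.04 times the level of Mt1 in WT_Opti and 0.99 ± 0.10 times in WT_Norm (ratio of FPKM, SD, n = 3 each).

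The zinc transporters did not follow the metallothioneins. Slc30a1 (ENSMUSG00000037434, chr1:191906767-191913247), whose product ZnT1 exports zinc across the plasma membrane, was at 19.5, 21.6 and 17.6 CPM in WT_Opti, against 17.9, 21.3 and 15.1 CPM in WT_Norm. These values overlapped (log2 fold change 0.11 ± 0.13, adjusted p = 0.514). Slc39a14 (ENSMUSG00000022094, chr14:70303469-70351425) encodes ZIP14, an importer of zinc, manganese and iron not bound to transferrin. It fell to 70.5, 65.6 and 62.8 CPM in WT_Opti, against 123, 120 and 106 CPM in WT_Norm (log2 fold change -0.81 ± 0.12, adjusted p = 0.000114). It was the only gene of the 10 called lower in this comparison.

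**Figure D1:**
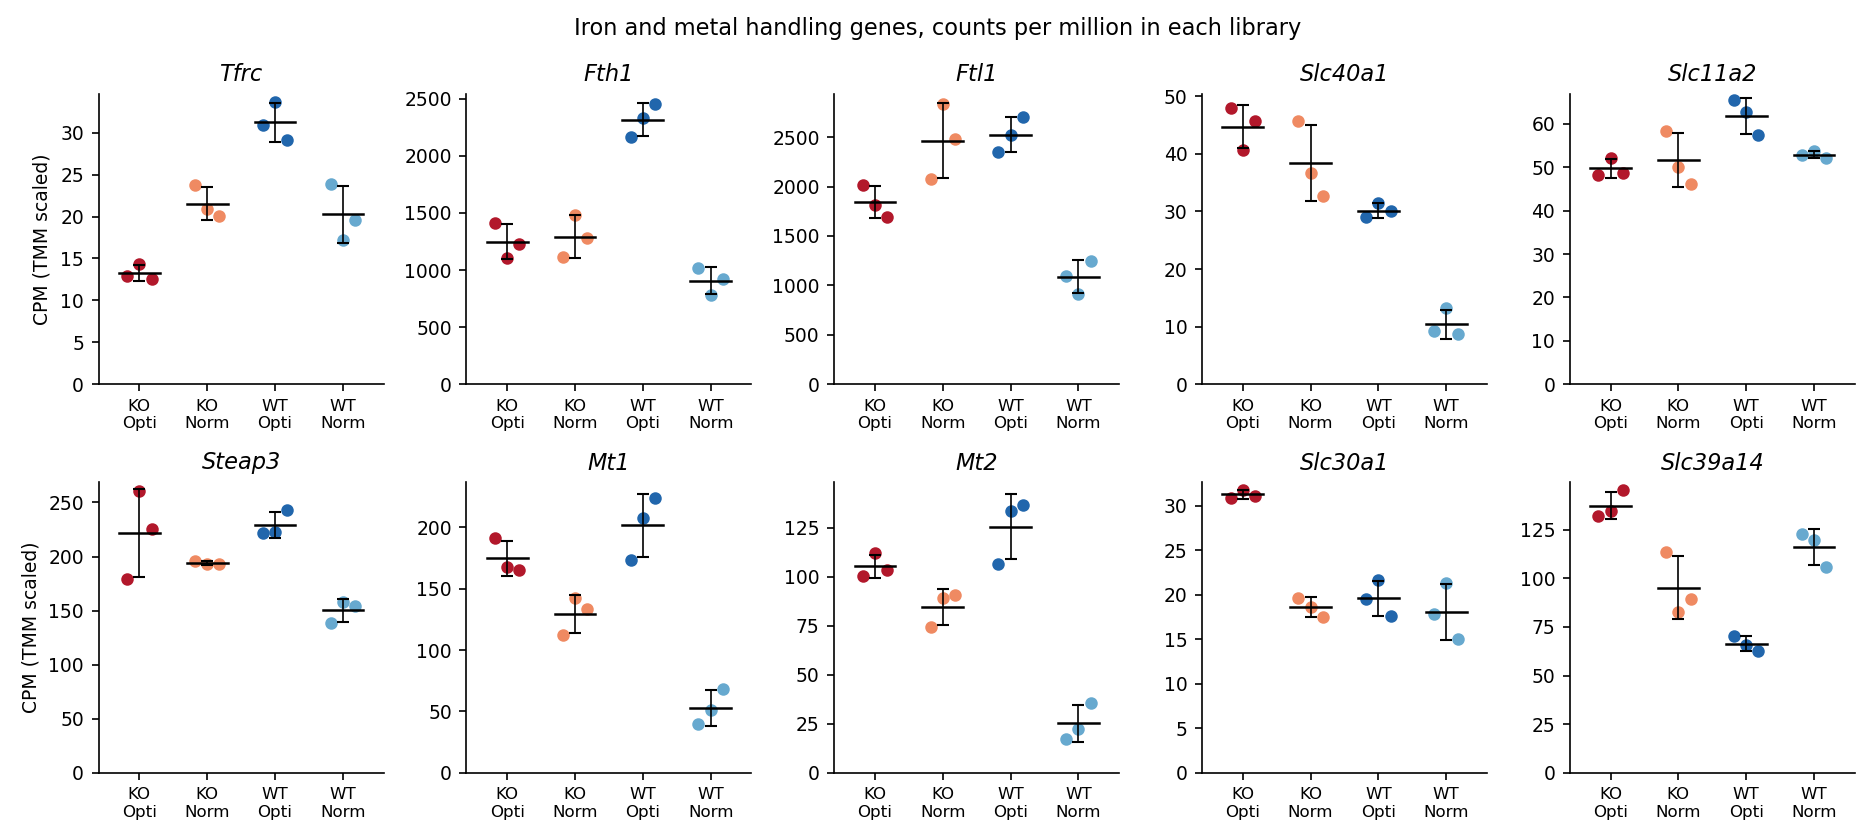
CPM (TMM scaled, linear axis from 0) of the 10 genes in each library, 3 libraries per group. Points are libraries, the long line is the group mean and the bar its SD. Fth1, Mt1 and Mt2 were lowest in WT_Norm, and Tfrc was lowest in KO_Opti.

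Loss of NG2/CSPG4 in serum medium was accompanied by higher levels of the same kinds of gene. Under the titles, 6 of the 10 genes were higher in KO_Norm, against 36.1% of all genes called in either direction. By edgeR with TMM scaling none was lower, and 1 (Slc39a14) was lower at an unadjusted p below 0.05, by DESeq2 and with RLE scaling in edgeR (adjusted p = 0.0363). The 6 were Slc40a1, Mt2, Mt1, Ftl1, Fth1 and Steap3. Their median over all 10 genes was 0.44 on the log2 scale, against -0.04 over all genes. This comparison shares the 3 WT_Norm libraries with the previous one, so that a low value in those libraries raises both. Of 18 myeloid markers, 1 was higher in KO_Norm and 2 lower under the titles (16.7%, against 36.1% of all genes). Under the treatment entry 15 were lower and none higher (83.3%, against 41.6%). Their part was not tested.

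Slc40a1 differed most, at 45.6, 36.6 and 32.7 CPM in KO_Norm, against 9.23, 13.3 and 8.67 CPM in WT_Norm (3.69-fold, log2 fold change 1.88 ± 0.16, adjusted p = 2.93e-06). Ftl1 was at 2072, 2833 and 2485 CPM in KO_Norm, against 1096, 916 and 1249 CPM in WT_Norm (log2 fold change 1.18 ± 0.14, adjusted p = 4.47e-05). Fth1 was at 1111, 1485 and 1283 CPM in KO_Norm, against 1016, 783 and 919 CPM in WT_Norm, a smaller difference (log2 fold change 0.51 ± 0.14, adjusted p = 0.0116) that missed the threshold without KO_Norm replicate 2 (adjusted p = 0.0555). Light and heavy chain thus stood in another proportion. Per length, Ftl1 was at 4.93 ± 0.09 times the level of Fth1 in KO_Norm and 3.11 ± 0.37 times in WT_Norm (ratio of FPKM, SD, n = 3 each).

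Both metallothioneins were higher without overlap. Mt1 was at 112, 142 and 133 CPM in KO_Norm, against 39.5, 50.9 and 68.5 CPM in WT_Norm (log2 fold change 1.29 ± 0.17, adjusted p = 0.000107). Mt2 was at 74.2, 89.2 and 90.9 CPM in KO_Norm, against 17.4, 22.3 and 35.9 CPM in WT_Norm (log2 fold change 1.75 ± 0.21, adjusted p = 4.07e-05). Steap3 was at 196, 193 and 193 CPM in KO_Norm, against 138, 158 and 154 CPM in WT_Norm (log2 fold change 0.37 ± 0.12, adjusted p = 0.0284). The Steap3 call was lost without any one of WT_Norm replicates 1 and 3 and KO_Norm replicates 1, 2 and 3, with adjusted p from 0.055 to 0.0987. The genes of uptake and of zinc transport did not pass the threshold, with log2 fold changes of 0.09 ± 0.13 for Tfrc, -0.04 ± 0.09 for Slc11a2, 0.04 ± 0.13 for Slc30a1 and -0.28 ± 0.11 for Slc39a14. Under the treatment entry, 2 of these became calls, Tfrc at -0.61 ± 0.13 (adjusted p = 0.00214) and Slc30a1 at 0.79 ± 0.13 (adjusted p = 0.000296). Slc39a14 then turned to 0.24 ± 0.11 and was not called (adjusted p = 0.105). The 6 genes above stayed higher.

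Under the titles, the genotypes in Opti-MEM differed in the other direction for the 2 ferritin genes. Of the 10 genes, 3 were higher in KO_Opti (Slc39a14, Slc30a1 and Slc40a1) and 4 were lower (Tfrc, Fth1, Ftl1 and Slc11a2), against 28.2% of all genes called in either direction. The median log2 fold change was -0.23 for the 10 genes and 0.01 over all genes. The metallothioneins and Steap3 did not pass the threshold. Myeloid markers moved with this comparison, since 14 of 18 were lower in KO_Opti. Under the treatment entry 4 of them were lower and 1 higher. Of 10 fibroblast and chondrocyte markers, 5 were lower and 4 higher under the titles. The part of these markers in the values of the iron genes was not tested.

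Tfrc fell to 12.9, 14.4 and 12.6 CPM in KO_Opti, against 31.0, 33.6 and 29.1 CPM in WT_Opti (log2 fold change -1.23 ± 0.13, adjusted p = 1.93e-05), the lowest and the highest of the 4 groups. Fth1 fell to 1415, 1106 and 1226 CPM in KO_Opti, against 2161, 2334 and 2451 CPM in WT_Opti (log2 fold change -0.89 ± 0.14, adjusted p = 0.000417). Ftl1 was at 2017, 1811 and 1696 CPM in KO_Opti, against 2350, 2524 and 2701 CPM in WT_Opti, also without overlap (log2 fold change -0.46 ± 0.14, adjusted p = 0.0287). Receptor and ferritin mRNA were thus both lower in KO_Opti. Slc11a2 was at 48.2, 52.2 and 48.7 CPM in KO_Opti, against 65.4, 62.7 and 57.4 CPM in WT_Opti (log2 fold change -0.32 ± 0.09, adjusted p = 0.0246).

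Slc40a1 was the iron gene that remained higher in the knockout, at 47.9, 40.6 and 45.6 CPM in KO_Opti, against 29.0, 31.4 and 30.0 CPM in WT_Opti (log2 fold change 0.57 ± 0.16, adjusted p = 0.0164). The zinc transporters rose beside it. Slc39a14 was at 132, 135 and 145 CPM in KO_Opti, against 70.5, 65.6 and 62.8 CPM in WT_Opti (2.07-fold, log2 fold change 1.05 ± 0.12, adjusted p = 2.91e-05). Slc30a1 was at 30.8, 31.8 and 31.1 CPM in KO_Opti, against 19.5, 21.6 and 17.6 CPM in WT_Opti (log2 fold change 0.68 ± 0.13, adjusted p = 0.0015). Under the titles KO_Opti was the only group in which Slc30a1 stood apart, since the other 9 libraries lay between 15.1 and 21.6 CPM. Mt1, the metallothionein, was at 191, 168 and 165 CPM in KO_Opti, against 173, 208 and 224 CPM in WT_Opti, with overlap (log2 fold change -0.21 ± 0.17, adjusted p = 0.415). Mt2 behaved alike, at 101, 112 and 104 CPM in KO_Opti, against 107, 133 and 137 CPM in WT_Opti (log2 fold change -0.25 ± 0.20, adjusted p = 0.397). The ferritin chains stood in another proportion here too, with Ftl1 at 3.84 ± 0.35 times the level of Fth1 in KO_Opti and 2.82 ± 0.03 times in WT_Opti (ratio of FPKM, SD, n = 3 each).

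Several of these calls were near the threshold. The call of Ftl1 was lost without any one of WT_Opti replicates 2 and 3 and KO_Opti replicates 2 and 3 (adjusted p from 0.0668 to 0.137), that of Slc40a1 without WT_Opti replicate 1 or KO_Opti replicate 1 or 3 (0.0537 to 0.0618), and that of Slc11a2 without WT_Opti replicate 1 or 2 or KO_Opti replicate 1 or 3 (0.0741 to 0.0902). Limma on log2(FPKM + 1) also ended the calls of Ftl1 (adjusted p = 0.184) and Slc11a2 (0.162). Under the treatment entry Tfrc (-0.54 ± 0.13), Fth1 (-0.84 ± 0.14) and Slc39a14 (0.52 ± 0.11) remained called and Mt1 became so (-0.64 ± 0.17, adjusted p = 0.0164). Ftl1 (-0.04 ± 0.14), Slc40a1 (0.35 ± 0.16) and Slc11a2 (-0.26 ± 0.09) were then not called. Neither was Slc30a1, whose direction turned (-0.07 ± 0.13).

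**Figure D2:**
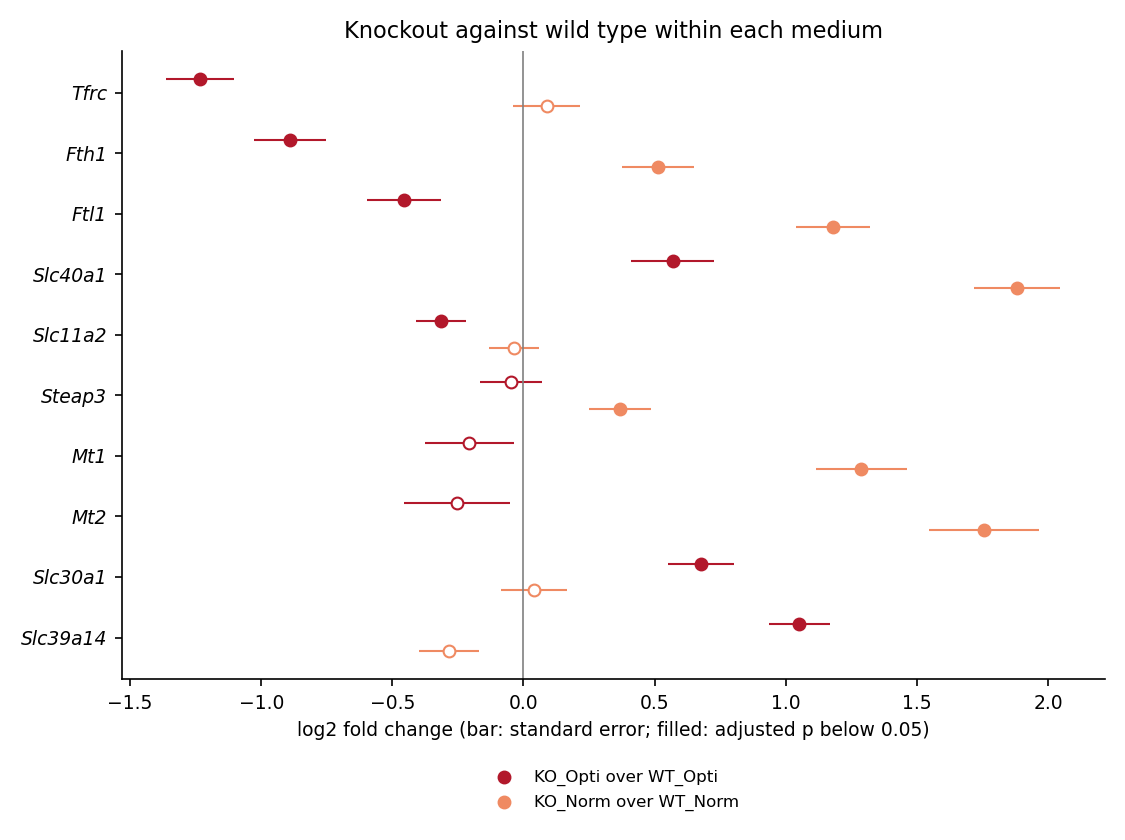
Log2 fold changes of the 10 genes between knockout and wild type within each medium, with the media of the knockout libraries read from their titles. Bars are standard errors and filled points have an adjusted p below 0.05. Slc40a1 was higher in the knockout in each medium, while Fth1 and Ftl1 were lower in KO_Opti (-0.89 and -0.46) and higher in KO_Norm (0.51 and 1.18).

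Over both media, a comparison that does not depend on the reading of the medium labels, 6 of the 10 genes were higher in the knockout and 1 was lower, against 34.0% of all genes called in either direction. Slc40a1 was the only one whose 6 knockout libraries (32.7 to 47.9 CPM) all stood above the 6 wild type libraries (8.67 to 31.4 CPM). Its log2 fold change was 1.23 ± 0.11 (adjusted p = 4.8e-06). Mt2 (0.75 ± 0.14, adjusted p = 0.00149), Mt1 (0.54 ± 0.12), Slc39a14 (0.38 ± 0.08), Ftl1 (0.36 ± 0.10) and Slc30a1 (0.36 ± 0.09) were higher. Tfrc was lower (-0.57 ± 0.09, adjusted p = 0.000355). Fth1 at -0.19 ± 0.10, Slc11a2 at -0.18 ± 0.07 and Steap3 at 0.16 ± 0.08 did not pass the threshold. Myeloid markers were lower over both media in 14 of 18 cases, and their part was not tested.

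Genotype and the level of Y-linked transcripts were not fully separate. Whether that level reflects the sex of the cultures was not tested. Summed Y-linked transcripts were at 73.5 to 82.1 CPM in KO_Opti and 113 to 129 CPM in KO_Norm, against 52.1 to 58.8 CPM in WT_Opti and 37.5 to 66.1 CPM in WT_Norm. With that sum as a covariate, 1 of the 7 genes called over both media remained called, Mt2 at 1.48 ± 0.31 (adjusted p = 0.0205). Slc40a1 was then at 0.48 ± 0.20 (adjusted p = 0.177) and Slc30a1 at -0.19 ± 0.16 (adjusted p = 0.543). In KO_Norm against WT_Norm the calls of Ftl1, Mt1 and Mt2 remained with the covariate, and in KO_Opti against WT_Opti those of Tfrc, Fth1 and Slc39a14. The covariate differs between every KO and every WT library, so that its part and that of genotype can hardly be told apart.

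Within the knockout, the change of medium was accompanied by a smaller and different set of differences. Under the titles, 2 of the 10 genes were higher in KO_Opti (Slc30a1 and Slc39a14) and 1 was lower (Tfrc), against 19.4% of all genes called. Tfrc was at 12.9, 14.4 and 12.6 CPM in KO_Opti, against 23.7, 20.9 and 20.0 CPM in KO_Norm (log2 fold change -0.70 ± 0.13, adjusted p = 0.00283). Slc30a1 was at 30.8, 31.8 and 31.1 CPM in KO_Opti, against 19.7, 18.7 and 17.5 CPM in KO_Norm (log2 fold change 0.75 ± 0.13, adjusted p = 0.00167). Slc39a14 was at 132, 135 and 145 CPM in KO_Opti, against 114, 82.7 and 89.1 CPM in KO_Norm (log2 fold change 0.53 ± 0.11, adjusted p = 0.00723). These 3 genes of uptake and zinc transport separated the knockout groups without overlap.

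The storage, export and metallothionein genes did not pass the threshold. Ftl1 was at 2017, 1811 and 1696 CPM in KO_Opti, against 2072, 2833 and 2485 CPM in KO_Norm, without overlap (log2 fold change -0.42 ± 0.14, adjusted p = 0.055), and DESeq2 called it lower (adjusted p = 0.0207). Mt1 was at 191, 168 and 165 CPM in KO_Opti, against 112, 142 and 133 CPM in KO_Norm, without overlap and with a log2 fold change of 0.43 ± 0.17 that missed the threshold (adjusted p = 0.0965). Mt2 also separated the knockout groups without overlap, at 101, 112 and 104 CPM in KO_Opti, against 74.2, 89.2 and 90.9 CPM in KO_Norm (0.31 ± 0.20, adjusted p = 0.315). Fth1 (-0.05 ± 0.14), Slc40a1 (0.22 ± 0.16), Steap3 (0.19 ± 0.12) and Slc11a2 (-0.05 ± 0.09) were not called. With the Y-linked sum as a covariate Slc40a1 was called higher in KO_Opti (0.77 ± 0.16, adjusted p = 0.0165) and Ftl1 lower (-0.74 ± 0.20, adjusted p = 0.0337). Under the treatment entry the sign of every value of this comparison is turned. Myeloid markers again moved with it, with 15 of 18 lower in KO_Opti, and their part was not tested.

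**Figure D3:**
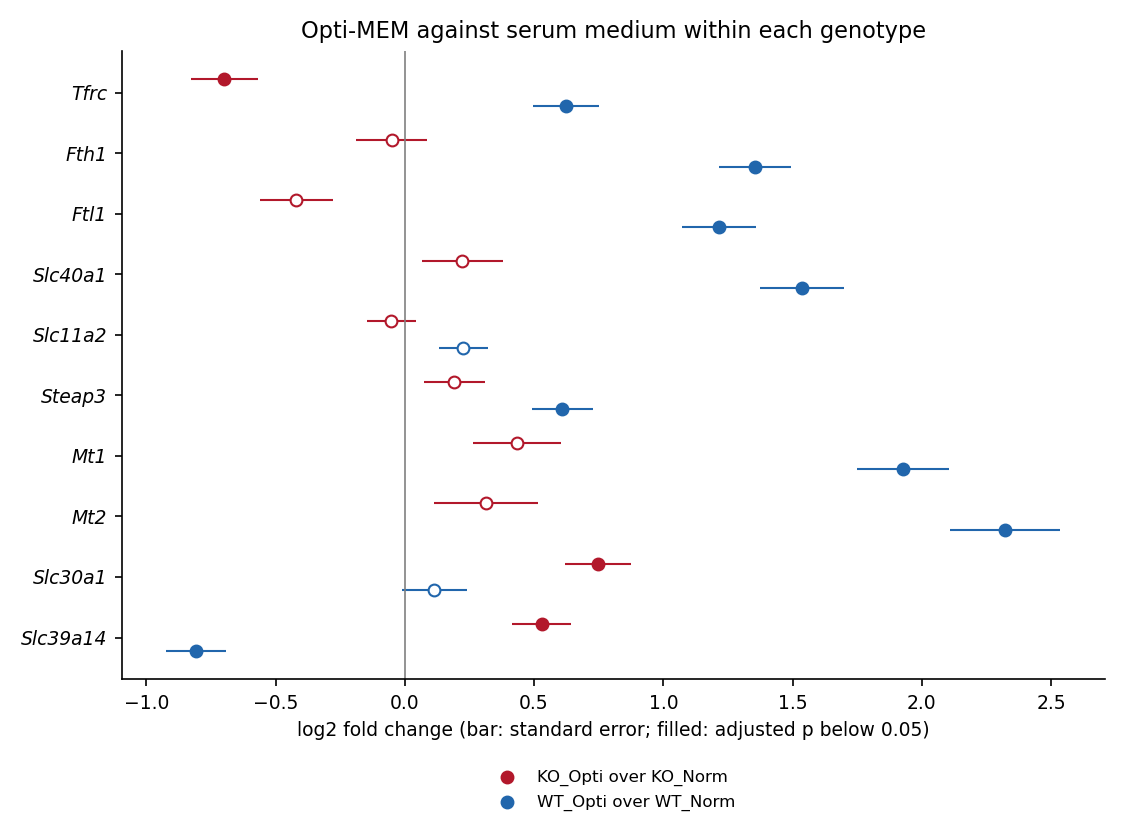
Log2 fold changes of the 10 genes between Opti-MEM and serum medium, in the knockout (media read from titles) and in the wild type. Bars are standard errors and filled points have an adjusted p below 0.05. In the wild type Fth1, Ftl1, Slc40a1, Mt1 and Mt2 lay between 1.22 and 2.32, and in the knockout between -0.42 and 0.43.

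The response to the medium was compared between genotypes with an interaction term, the response in the knockout minus that in the wild type. Of the 10 genes, 8 passed, 6 with a lower and 2 with a higher response in the knockout, against 31.4% of all genes. Myeloid markers moved with the interaction too, with 11 of 18 lower and 1 higher and a median of -1.45, against -1.32 for the 10 genes, while under the treatment entry 15 of 18 were higher and none lower. Their part was not tested. The difference was -2.01 ± 0.29 for Mt2, -1.64 ± 0.20 for Ftl1, -1.49 ± 0.24 for Mt1, -1.40 ± 0.20 for Fth1, -1.32 ± 0.18 for Tfrc and -1.31 ± 0.22 for Slc40a1. It was 1.34 ± 0.16 for Slc39a14 and 0.63 ± 0.18 for Slc30a1, which missed the threshold with limma on log2(FPKM + 1) (adjusted p = 0.0813). Steap3 (-0.42 ± 0.17, adjusted p = 0.0765) and Slc11a2 (-0.28 ± 0.13, adjusted p = 0.132) did not pass. Under the treatment entry the lower response of Mt2 (-2.64 ± 0.29), Mt1 (-2.36 ± 0.25), Slc40a1 (-1.76 ± 0.23), Fth1 (-1.30 ± 0.19) and Ftl1 (-0.80 ± 0.20) remained called. Tfrc (0.07 ± 0.18, adjusted p = 0.79) and Slc39a14 (0.28 ± 0.16, adjusted p = 0.206) were then not called. Slc30a1 was called in the other direction (-0.86 ± 0.18, adjusted p = 0.00235), and Steap3 became a call (-0.80 ± 0.17, adjusted p = 0.00259). Whichever label is right, the rise of ferritin, ferroportin and metallothionein mRNA seen between WT_Norm and WT_Opti was larger than the difference between the knockout groups.

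Across all 12 libraries the members fell into loose groups, given here as a description over points that share libraries and depth. Log2 CPM of Mt1 and Mt2 had a Pearson r of 0.99, Mt2 and Steap3 0.89, and Fth1 and Ftl1 0.80. Ftl1 was closer to Mt2 (0.88) and Mt1 (0.86) than to Fth1. Slc40a1 also went with Mt2 (0.85) and Mt1 (0.84). Tfrc went with Slc11a2 (0.78) and against Slc39a14 (-0.85). Of the 10991 genes that averaged 5 CPM or more, Ypel2 (0.96), Col18a1 (0.95) and Exo5 (0.95) were most like Tfrc. Cdc40, Cd200r4 and Lama1 (0.98 each) were most like Slc40a1, and after Mt2 the genes most like Mt1 were Angptl6 (0.98) and Usb1 (0.97).

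A wider set of 107 iron, heme, zinc and copper genes, of which 92 were tested, did not move one way. In WT_Opti against WT_Norm 18 were higher and 24 lower, in KO_Norm against WT_Norm 23 and 19, in KO_Opti against WT_Opti 11 and 15, and in KO_Opti against KO_Norm 4 and 8. Over both media 19 were higher in the knockout and 20 lower. The shares called in these 5 comparisons were 45.7%, 45.7%, 28.3%, 13.0% and 42.4% of the 92 genes, against 39.8%, 36.1%, 28.2%, 19.4% and 34.0% of all genes. Under the treatment entry 20 were higher and 27 lower in KO_Norm against WT_Norm (51.1%, against 41.6% of all genes). The counts were then 12 and 15 in KO_Opti against WT_Opti (29.3%, against 23.6%) and 8 and 4 in KO_Opti against KO_Norm. Under the titles, the median log2 fold changes of these genes lay between -0.10 and -0.01 in these 5 comparisons.

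Hmox1 and Slc48a1, genes of heme breakdown and transport, were highest in WT_Opti and lowest in WT_Norm. Hmox1, heme oxygenase, breaks heme down and frees its iron. It was at 541.7, 608.6 and 534.1 CPM in KO_Opti and 905.9, 1094 and 997.7 CPM in KO_Norm, and at 1426, 1666 and 1761 CPM in WT_Opti and 186, 239 and 203 CPM in WT_Norm. The order of the 4 groups was without overlap. In the wild type the log2 fold change of Opti over Norm was 2.95 ± 0.13 (adjusted p = 1.09e-08), in the knockout it was -0.83 ± 0.12, and their difference was -3.78 ± 0.18. The knockout value rests on the titles, and under the treatment entry it was 0.83 ± 0.12 and the difference -2.12 ± 0.17. Slc48a1, which carries heme out of lysosomes, followed a like order, with log2 fold changes of 1.44 ± 0.11 in the wild type and -0.61 ± 0.11 in the knockout, the second of which was 0.61 ± 0.11 under the treatment entry. Hspa9, a mitochondrial chaperone of iron-sulfur cluster transfer, was at 905.5 CPM in KO_Opti, 1021 CPM in KO_Norm and 930.9 CPM in WT_Opti on average, and at 280.7 CPM in WT_Norm. Of 34 heme and iron-sulfur cluster genes, 10 were higher and 2 lower in WT_Opti against WT_Norm, and 12 were higher and none lower in KO_Norm against WT_Norm. That is 35.3% in each comparison, against 39.8% and 36.1% of all genes, so the share called was near that of all genes. In KO_Norm against WT_Norm the treatment entry gave 11 higher and 4 lower.

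Other genes of iron uptake, storage and export moved in both directions. Of 17 tested, 3 were higher and 6 lower in WT_Opti against WT_Norm (52.9%, against 39.8% of all genes), and 6 were higher and 7 lower in KO_Norm against WT_Norm (76.5%, against 36.1%). With the treatment entry the counts in KO_Norm against WT_Norm were 3 and 10. Cybrd1, a ferric reductase of the plasma membrane, was at 7.77 CPM in KO_Opti and 10.1 CPM in KO_Norm on average, against 17.8 CPM in WT_Opti and 42.7 CPM in WT_Norm, and over both media it was lower in the knockout (log2 fold change -1.64 ± 0.10). Trf, the mRNA of transferrin, was lower over both media as well (-2.26 ± 0.25), with WT_Norm spread widely at 13.9, 17.0 and 43.6 CPM. Mcoln1, a lysosomal cation channel, and Slc25a37, a mitochondrial iron importer, rose in WT_Opti (1.25 ± 0.10 and 1.47 ± 0.20). Of the sensing genes, Erfe, whose hormone product lowers hepcidin, was higher in the knockout over both media (2.47 ± 0.18), at 13.5 to 25.4 CPM in the 6 knockout libraries and 2.06 to 6.95 CPM in the 6 wild type libraries. Hfe was lower in KO_Opti against WT_Opti (-0.86 ± 0.11).

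**Figure D4:**
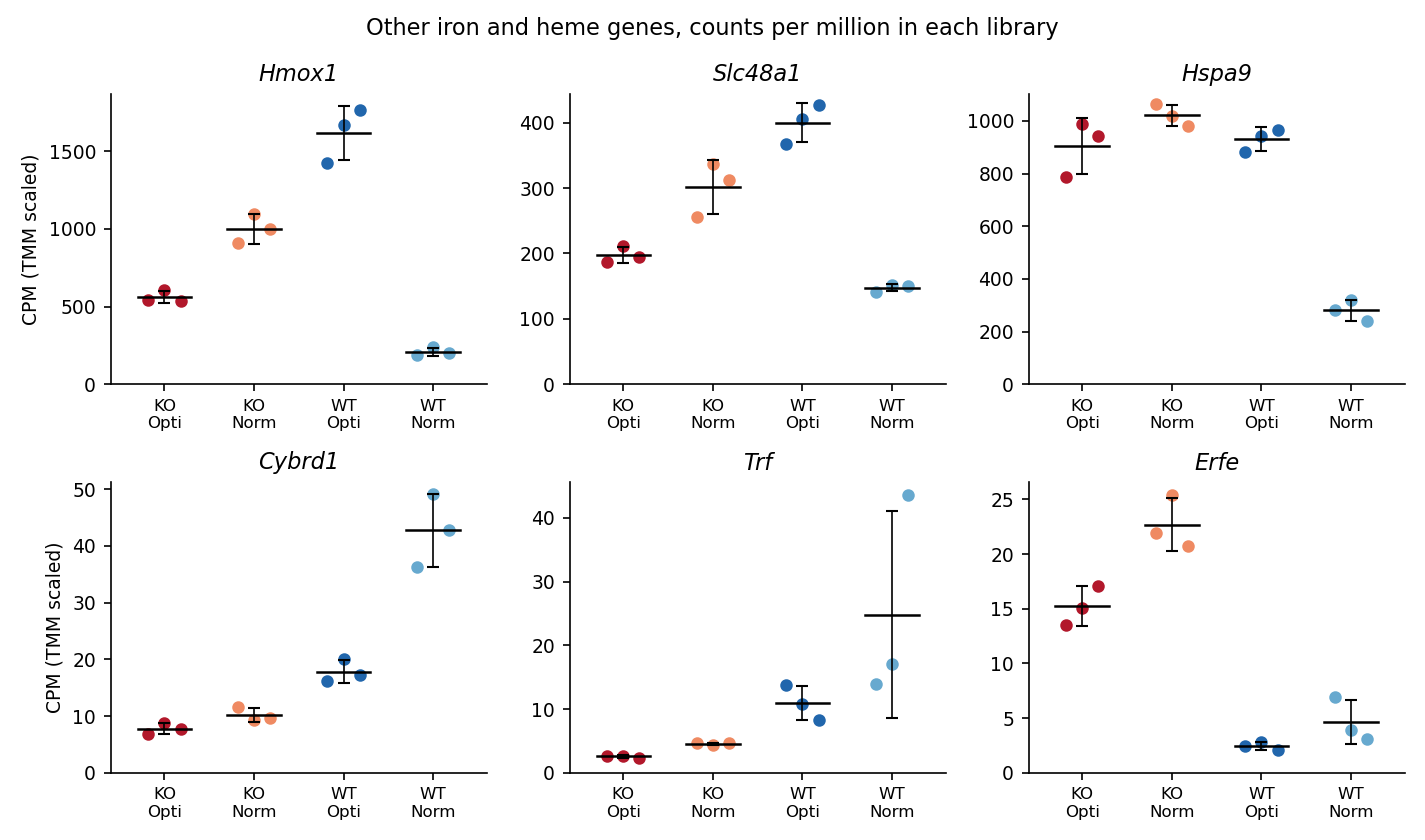
CPM (TMM scaled, linear axis from 0) of 6 other iron and heme genes in each library. Points are libraries, the long line is the group mean and the bar its SD. Hmox1 and Slc48a1 were highest in WT_Opti, Hspa9 was lowest in WT_Norm, and Erfe was higher in all 6 knockout libraries than in any wild type library.

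Of 20 tested genes of zinc transport and sensing, 8 were lower and none higher in WT_Opti against WT_Norm (40.0%, against 39.8% of all genes), and 8 were lower and 1 higher in KO_Norm against WT_Norm (45.0%, against 36.1%). In WT_Opti against WT_Norm that share was near the one over all genes. Slc39a13, an importer known from a connective tissue disease in humans, fell to 93.8 CPM on average in WT_Opti, against 176.5 CPM in WT_Norm (log2 fold change -0.91 ± 0.10). Slc30a7 (-0.62 ± 0.11) and Slc30a5 (-0.44 ± 0.09), which load zinc into the secretory pathway, fell as well. Mtf1, the gene of the metal sensor MTF-1, was at -0.08 ± 0.11 (adjusted p = 0.637). Of 12 tested copper genes 3 were higher and 4 lower in WT_Opti against WT_Norm (58.3%, against 39.8% of all genes), among them the importer Slc31a1 (-0.51 ± 0.09) and its relative Slc31a2 (0.63 ± 0.11).

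Some of these rows share sequence or place with others. The Ftl1 pseudogenes Ftl1-ps1, Ftl2-ps and Ftl1-ps2 were tested and all 3 were higher in WT_Opti against WT_Norm, at 1.41 ± 0.13, 1.34 ± 0.13 and 1.70 ± 0.59. Copies of Ftl1 together held counts equal to 2.25% to 2.52% of the Ftl1 counts in the 4 groups, and how reads were split between gene and copies is uncertain. Mt2 overlaps the antisense gene Gm45774, which had 521 to 878 counts in KO_Opti, 85 to 103 in KO_Norm, 239 to 279 in WT_Opti and 23 to 53 in WT_Norm. Ftl1 overlaps Gm22133, with 40 to 192 counts over all libraries, and Gm10252, with 11 to 1294. Slc11a2 overlaps Gm5475, with at most 16 counts, and Slc30a1 overlaps 1700034H15Rik, with at most 24. Whether strand was used in counting is not given in the sources used here, so reads of these genes and of the 4 members may not be told apart.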

How the data were processed

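Messenger RNA was measured in 12 libraries by poly(A) capture, a stranded mRNA kit and paired-end sequencing. Per the labels and the study's methods, the authors checked reads with FastQC, aligned them with HISAT2, assembled and quantified them with StringTie and used edgeR, with versions and genome build not given in the sources used here. Gene coordinates in the deposited table fit GRCm38, since all 10 members overlap their gene in GENCODE M21. The deposited table holds, per gene and library, read counts that were not normalized, and FPKM values that the authors scaled by gene length and depth. Counts were tested with edgeR 4.0.16 (R 4.3.3): TMM scaling, filterByExpr, the quasi-likelihood test over all 12 libraries with 4 group means, 2-sided, and Benjamini-Hochberg adjustment over 19118 genes with a threshold of 0.05. Standard errors are the log2 fold change divided by the square root of F. CPM are TMM scaled, and levels are compared between genes only as ratios of the authors' FPKM. The biological coefficient of variation was 25.4%. Libraries of a group differed by more than counting noise (chi-square per degree of freedom of 21.4 to 218.9), so no library was counted as a repeat of another.

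The alternatives were DESeq2 1.42.0, RLE scaling, no low-count filter, only the groups compared, limma 3.58.1 on log2(FPKM + 1) or log2(FPKM + 0.1) with and without a filter, a replicate block, a Y-linked covariate, leaving out each library, and reading the knockout media from the treatment entry. Scaling to library totals was added after seeing the data. The procedure was tested on simulated data.

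The members and the gene lists were chosen with earlier results of these data known. The text names all 10 members, Cspg4, up to 3 genes with the smallest adjusted p per wider list and comparison, ferritin copies, and the 3 genes most like Tfrc, Slc40a1 and Mt1. Values of these genes in further comparisons are given beside them, and Mtf1 was added after its values were seen.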

Additional observations from a re-analysis of the deposited data

Results flagged for a closer look

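The response to the medium differed between genotypes, by the interaction term of edgeR's quasi-likelihood test, for 8 of the 10 genes. The response in the knockout minus that in the wild type was -2.01 for Mt2, -1.64 for Ftl1, -1.49 for Mt1, -1.40 for Fth1, -1.32 for Tfrc and -1.31 for Slc40a1 on the log2 scale, and it was 1.34 for Slc39a14 and 0.63 for Slc30a1. Myeloid markers moved with it, 11 of 18 lower and 1 higher with a median of -1.45 under the titles, and 15 of 18 higher under the treatment entry, and their part was not tested. Across the alternatives other than the treatment entry, 7 of the 8 stayed called throughout, and Slc30a1 was called under 18 of 21. No group had more than 3 libraries, so single libraries were not tested as outliers.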

How the results depend on the processing

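Member values kept direction and side of the threshold in 57 of 60 cases with RLE scaling, 56 of 60 with DESeq2, 59 of 60 without the low-count filter, 39 of 40 with only the groups compared, 49 of 60 with limma on log2(FPKM + 1), and 683 of 720 when 1 library was left out. The replicate numbers did not pair the libraries, since correlations of deviations ran from -0.198 to 0.151 and 3 of 18 exceeded 0.1. The replicate block changed no member call (60 of 60) and gave 7277, 6478, 5203, 3528, 6260 and 5760 genes in the 6 comparisons, against 7616, 6896, 5395, 3709, 6491 and 6007. With the Y-linked covariate 919 genes were called in KO_Norm against WT_Norm, 1957 in KO_Opti against KO_Norm, 992 over both media and 3466 for the interaction, with 3, 5 and 1 members in the first 3 and 3 in KO_Opti against WT_Opti, and Slc30a1 over both media turned to -0.19. Under the treatment entry 4 members were called in KO_Opti against WT_Opti. Among values called under either reading, those of Tfrc, Slc30a1 and Slc39a14 turned. Tfrc was at -0.61 in KO_Norm against WT_Norm, 0.70 in KO_Opti against KO_Norm and 0.074 for the interaction. Slc30a1 was at -0.072 in KO_Opti against WT_Opti, -0.75 in KO_Opti against KO_Norm and -0.86 for the interaction. Slc39a14 was at -0.53 in KO_Opti against KO_Norm. Called under neither reading, Slc39a14 in KO_Norm against WT_Norm turned to 0.24, and the uncalled values in KO_Opti against KO_Norm turned as well. With limma on all genes above 0, 2383 genes were called in KO_Opti against KO_Norm. Leaving out 1 library gave 2091 (KO_Opti replicate 1) to 4232 genes in that comparison, with 2139 without KO_Norm replicate 3, 2252 without KO_Norm replicate 2 and 2255 without KO_Opti replicate 3. It gave 3 to 5 members there (5 without WT_Norm replicate 3) and 4 to 7 members in KO_Opti against WT_Opti (4 without KO_Opti replicate 3). Calls gained in that way were Ftl1 in KO_Opti against KO_Norm without WT_Norm replicate 2 or 3 or KO_Norm replicate 1 (adjusted p from 0.0228 to 0.0391), Mt1 there without WT_Norm replicate 3 (0.0423), Slc39a14 in KO_Norm against WT_Norm without WT_Norm replicate 3 (0.0433) or KO_Norm replicate 1 (0.00537), Slc11a2 without KO_Norm replicate 1 in WT_Opti against WT_Norm (0.0343) and over both media (0.012), and Steap3 without KO_Opti replicate 1 in KO_Opti against KO_Norm (0.0476) and over both media (0.0171) and without KO_Opti replicate 2 for the interaction (0.0151). Counts scaled to library totals put the median of all genes at 0.15 in KO_Opti against KO_Norm and 0.14 in WT_Opti against WT_Norm. With TMM these medians were 0.002 and -0.013. The share of higher calls in the 5 pairwise comparisons moved to 59.3% to 70.1%, against 43.2% to 53.0% with TMM. With limma on log2(FPKM + 1) that share was 56.8% to 70.98%. The causes of these shifts were not tested. At this depth every member had at least 402 counts in each library, so counting error was small beside the spread between libraries.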
